A study of Mus musculus with 6 samples.

Results

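RNA from 6 mouse leg tumors was examined for 36 genes of the fibrillar collagens and the stromal extracellular matrix. The genes were given as a list of names, and all 36 were found among the 17312 genes of the deposited table. Of the tumors, 3 came from mice with a Cre-lox inducible allele of SS18-SSX1 and 3 from mice with such an allele of SS18-SSX2. SS18-SSX is the fusion oncoprotein of synovial sarcoma, a soft tissue cancer. In both genotypes TATCre protein, a cell-permeant Cre recombinase, was placed in the soft tissue before the shin, and tumors were taken about 1 year later with no other treatment. The labels give no strain, sex, age or cell of origin, there is no group without the fusion, and nothing says that each tumor came from a separate mouse, so p-values measure the spread between these samples only. Levels are FPKM, which divides the fragments of a gene by its length and by the library total. The gene lengths used were not given, so levels of different genes can be compared only as far as those lengths hold. In RNA from a whole tumor, fewer cells of a type and less RNA per cell cannot be told apart.

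Collagens are trimers wound into a triple helix, which needs a glycine at the start of each Gly-X-Y triplet of the chain. Type I collagen is built from chains of Col1a1 and Col1a2, type III from Col3a1 alone, and type V, which sits inside type I fibrils and helps to start them, from Col5a1, Col5a2 and Col5a3. The helix is folded with the chaperone Serpinh1 (HSP47), trimmed by proteases that Pcolce assists, crosslinked by the lysyl oxidases Lox, Loxl1 and Loxl2, and dressed with the small leucine-rich proteoglycans Dcn, Lum and Bgn. Fibrillins (Fbn1, Fbn2) form the microfibrils on which elastin (Eln) is laid down. In soft tissue most of this matrix is made by fibroblasts and related mesenchymal cells, and sarcoma cells, being mesenchymal tumor cells, can make it too.

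The triplet is visible in the coding sequences of the chains. In the GENCODE release 21 transcripts (GRCm38), an unbroken run of codon triplets beginning with GGN, the glycine codons, covered 338 triplets in Col1a1, 339 in Col1a2, 344 in Col3a1, 338 in Col5a1, 339 in Col5a2 and 337 in Col5a3. The first 60 bases of that run, 5′ to 3′ with the glycine codons in capitals, are shown for the pair of type I chains, for Col3a1 and its neighbour gene Col5a2, and for Col6a3 as a chain with a shorter run.
Col1a1: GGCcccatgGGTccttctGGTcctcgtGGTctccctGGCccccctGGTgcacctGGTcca
Col1a2: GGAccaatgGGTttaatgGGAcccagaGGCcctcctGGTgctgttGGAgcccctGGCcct
Col3a1: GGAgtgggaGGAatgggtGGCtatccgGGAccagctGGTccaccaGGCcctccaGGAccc
Col5a2: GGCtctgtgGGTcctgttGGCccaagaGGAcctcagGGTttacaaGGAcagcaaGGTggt
Col6a3: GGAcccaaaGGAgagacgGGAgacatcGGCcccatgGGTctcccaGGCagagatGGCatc
These stretches are coding exon sequence. They lie on chromosome 11 from 94939451 to 94939909 for Col1a1, on chromosome 6 from 4512406 to 4515486 for Col1a2 and on chromosome 1 from 45323762 to 45325383 for Col3a1, all on the plus strand, with introns inside. On the minus strand they lie on chromosome 1 from 45422434 to 45426996 for Col5a2 and from 90791954 to 90792445 for Col6a3. The other chains had shorter runs, with 87 triplets in Col6a1 and Col6a2, 45 in Col6a3, 61 in Col8a1, 52 in Col16a1, 32 in Col12a1 and Col14a1 and 30 in Col15a1. Runs of 5 or more triplets took 77.2% of the codons of Col1a2 but 8.22% of those of Col12a1, a long chain that is mostly not helical.

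Sequence before the RefSeq start is shown for Col3a1, the fibrillar chain with the largest mean difference between the genotypes, and for Col1a2, the chain that was far lower in 1 tumor than in the other 5. Both come from RefSeq on GRCm38.p6, plus strand, at chr1:45311288-45311537 and chr6:4505370-4505492. Capitals mark matches, on either strand, to TATAAA (the TATA box letters), to CCAAT, or to GGGCGG (the core of a GC box). The Col1a2 piece is the part of its 300-base RefSeq window outside annotated exons. It lies in an intron of a longer GENCODE transcript that starts further upstream, and the CCAAT match of the window is in the part not shown.
Col3a1: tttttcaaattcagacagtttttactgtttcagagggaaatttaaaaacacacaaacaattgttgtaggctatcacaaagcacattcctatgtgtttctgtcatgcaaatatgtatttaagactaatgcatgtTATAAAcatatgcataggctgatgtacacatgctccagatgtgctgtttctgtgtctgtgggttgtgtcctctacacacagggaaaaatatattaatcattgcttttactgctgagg
Col1a2: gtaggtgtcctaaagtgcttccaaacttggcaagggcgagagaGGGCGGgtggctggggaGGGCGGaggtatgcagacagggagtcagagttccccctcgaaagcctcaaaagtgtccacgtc
RefSeq promoter windows of 300 bases were found for 22 of the 36 genes (27 windows). TATAAA was in 3 of the 27 windows (Col3a1, Postn and Thbs2) and in 13.6% of all 32851 windows. CCAAT was in 8 of 27 and in 37.4% of all windows. GGGCGG was in 15 of 27 and in 35.7% of all windows, among them those of Col1a2, Col5a1, Col5a3, Col16a1, Fbn1 and Serpinh1. These letter matches are a description and show no binding.

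The 6 libraries held 7285850 to 17546220 reads, a total recovered from the smallest steps between values. Genes of other cell types set some tumors apart. Skeletal muscle fibre genes (20 of 20 listed found) summed to 13012 FPKM in tumor 2 of SS18-SSX1, to 5819.6 FPKM in tumor 2 of SS18-SSX2, and to 132 to 572 FPKM in the other 4 tumors. Mast cell genes (8 of 8) summed to 2510.2 FPKM in SS18-SSX1 tumor 3 and 13.7 to 105 FPKM elsewhere. Fibroblast markers (12 of 12) summed to 189 to 296 FPKM over the SS18-SSX1 group and 232 to 248 FPKM over the other. Pdgfra, a receptor of mesenchymal cells, stood at 57.7 to 82.1 FPKM in all tumors, and the rest of the fibroblast list was split in SS18-SSX1 tumors 1 and 3. There Dpt, Pi16, Clec3b, Dpep1 and Fap were below 1 FPKM. In the same tumors Cd34 stood at 31.2 and 36.4 FPKM, Gsn at 41.0 and 39.9 FPKM, and Ly6a at 2.29 and 44.5 FPKM. Of the genes below 1 FPKM there, only Dpt was above 1 FPKM in every other tumor. Pi16, Clec3b, Dpep1 and Fap were also below 1 FPKM in SS18-SSX2 tumor 3. So were Pi16 and Clec3b in SS18-SSX2 tumor 1, and Fap in SS18-SSX2 tumor 2. Thy1 was lower in every SS18-SSX1 tumor than in every SS18-SSX2 tumor, while Pdgfrb and Pdpn overlapped between the genotypes. Sums of the other marker lists ran from 105 to 279 FPKM for pericytes and smooth muscle, 24.4 to 121 for endothelium, 44.7 to 572 for macrophages, 1.46 to 73.5 for adipocytes and 36.5 to 94.1 for tendon and joint lining. They ran from 150.2 to 1186 for osteoblasts and cartilage, 29.8 to 71.2 for Schwann cells and 15.0 to 119 for epithelium. The Y-linked gene Ddx3y was at 28.2 to 35.2 FPKM in the SS18-SSX1 tumors and at 0 to 0.0148 FPKM in the SS18-SSX2 tumors, so genotype and the sex of the mice cannot be told apart. The part of these other cells in the matrix values was not tested.

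The levels of many matrix genes differed widely between tumors. The median SD of log2(FPKM + 1) over the 6 tumors was 0.86 for the 34 matrix genes that passed the filter (at least 1 FPKM in at least 3 tumors) and 0.41 for all 13873 genes that passed it. In 11 of the 34 the highest tumor exceeded the lowest at least 10-fold, against 9.59% of all tested genes. SS18-SSX1 tumor 3 held the lowest value of 15 of the 34 genes (44.1%, against 22.1% of all tested genes), including Col1a1, Col3a1, Col5a1, Col5a2, Fbn1 and Sparc. SS18-SSX1 tumor 1 held the lowest value of 9 (26.5%, against 17.3%), including Col1a2, Col14a1, Lox, Lum and Dcn. SS18-SSX1 tumor 2, rich in muscle RNA, held the highest value of 9 (26.5%, against 11.8%), including Col1a1, Col14a1, Emilin1, Bgn and Thbs2. SS18-SSX2 tumors held the lowest value of 4, 3 and 1 genes in tumors 1, 2 and 3. These counts are descriptions of 6 tumors, with no test.

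**Figure D1:**
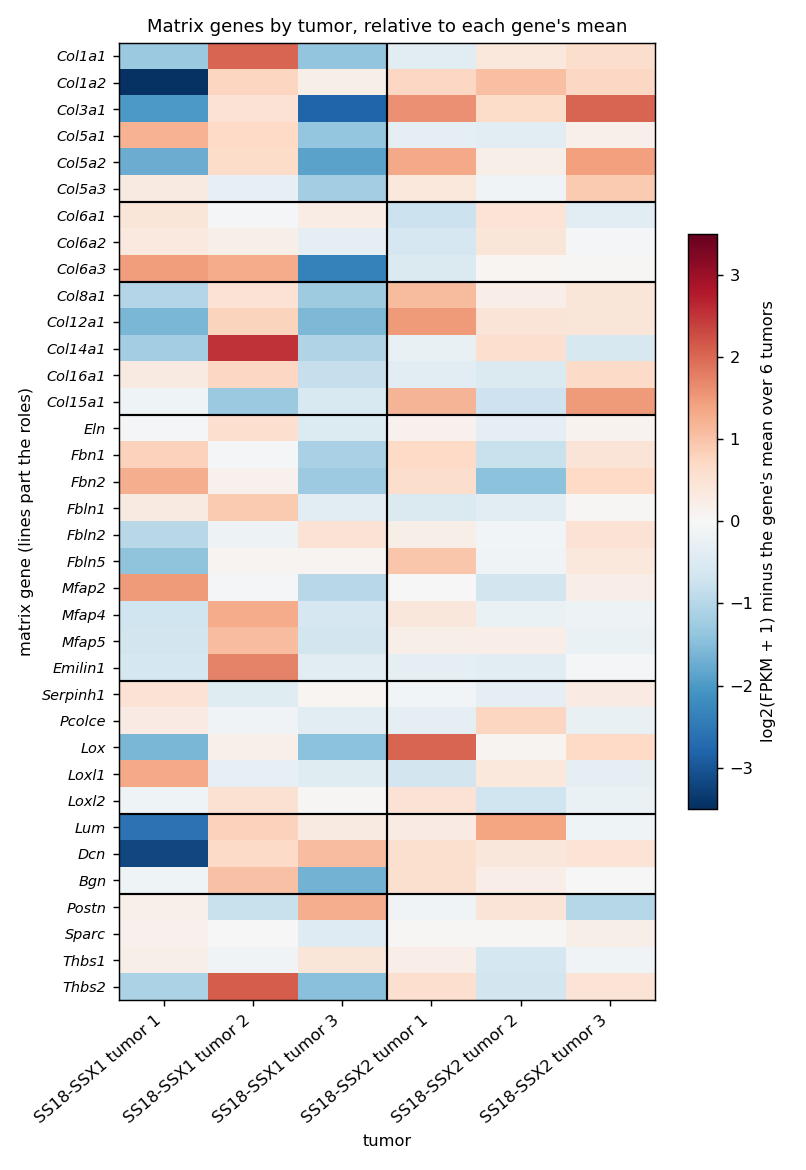
Level of each of the 36 matrix genes (rows) in each tumor (columns), as log2(FPKM + 1) minus the gene's mean over the 6 tumors; red is above and blue below that mean, and black lines part the roles and the genotypes. The blue blocks lie in SS18-SSX1 tumors 1 and 3, where 9 and 15 of the 34 tested genes had their lowest value.

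**Figure D2:**
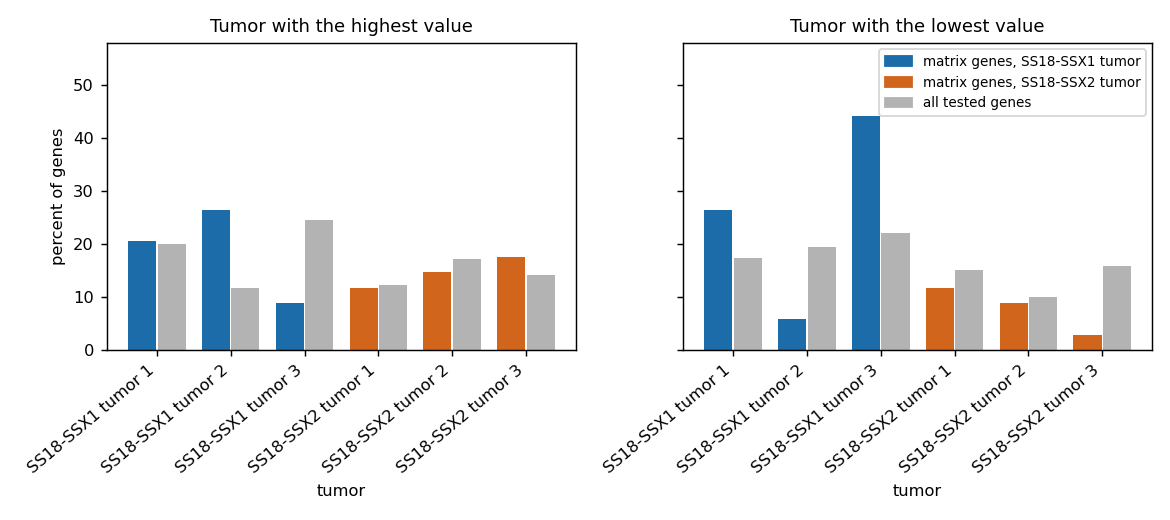
Percent of genes (vertical axis) whose highest (left) or lowest (right) value was in each tumor, for the 34 tested matrix genes (blue, SS18-SSX1; orange, SS18-SSX2) and for all 13873 tested genes (grey). SS18-SSX1 tumor 3 held the lowest value of 44.1% of the matrix genes and of 22.1% of all tested genes.

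The 6 fibrillar chains summed to 454, 3248 and 376 FPKM (SS18-SSX1 tumors 1 to 3), then 1488, 1412 and 2267 FPKM (SS18-SSX2 tumors 1 to 3). Col1a1, the main chain of type I collagen (chromosome 11 from 94936224 to 94953042 on GRCm38), had the highest mean of the 36 genes, though Sparc and Serpinh1 exceeded it in SS18-SSX1 tumors 1 and 3. Its levels were 262, 2659 and 249 FPKM (SS18-SSX1 tumors 1 to 3), then 497, 827 and 991 FPKM (SS18-SSX2 tumors 1 to 3). SS18-SSX1 tumor 2 was thus far above all others, and the other 2 SS18-SSX1 tumors were below all SS18-SSX2 tumors. The other muscle-rich tumor, SS18-SSX2 tumor 2, stood at 827 FPKM, between the other 2 of its genotype. The means were 1057 ± 1388 FPKM for SS18-SSX1 against 771 ± 252 FPKM for SS18-SSX2 (SD, n = 3 each), with a log2 fold change on the log2(FPKM + 1) scale (SS18-SSX2 minus SS18-SSX1) of 0.41 (SE 0.99, limma adjusted p = 0.997). The mean FPKM and the mean log2 level thus differed in sign for this gene, and from here on a higher or lower mean is that of log2(FPKM + 1).

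Col1a2, the partner chain of type I collagen (chromosome 6 from 4504814 to 4541544), was low in a different tumor from Col1a1. It had 4.08, 92.0 and 62.3 FPKM (SS18-SSX1 tumors 1 to 3), then 90.0, 115 and 90.7 FPKM (SS18-SSX2 tumors 1 to 3). SS18-SSX1 tumor 1 was far below the rest, and the other 5 tumors lay within 62.3 to 115 FPKM. The log2 fold change was 1.67 (SE 0.97, limma adjusted p = 0.997). The ratio of Col1a1 to Col1a2 within a tumor was 64.4, 28.9 and 3.99 in the SS18-SSX1 tumors against 5.52, 7.22 and 10.9 in the SS18-SSX2 tumors. The ratio spanned 16.1-fold among SS18-SSX1 tumors and 1.98-fold among SS18-SSX2 tumors, and the genotypes overlapped. A ratio inside a tumor does not depend on how libraries are scaled, but its size rests on the gene lengths used.

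Col3a1, the chain of type III collagen, showed the largest log2 fold change of the 34 tested genes and the largest SD of log2(FPKM + 1). Its levels were 58.3, 333 and 33.1 FPKM (SS18-SSX1 tumors 1 to 3), then 721, 368 and 974 FPKM (SS18-SSX2 tumors 1 to 3). All SS18-SSX2 tumors lay above all SS18-SSX1 tumors, the closest being 368 and 333 FPKM, in the muscle-rich tumor 2 of each genotype. The means were 141 ± 166 FPKM for SS18-SSX1 against 688 ± 304 FPKM for SS18-SSX2 (SD, n = 3 each) and the log2 fold change was 2.86 (SE 0.84, limma adjusted p = 0.677), so the difference was not called. Its 95% interval in limma ran from 0.91 to 4.81 before any adjustment for the number of genes. Markers of pericytes and smooth muscle were also higher in part: of 11 tested, the genotypes did not overlap for 2, both higher in SS18-SSX2 tumors (4.97% of all tested genes were so). Acta2, smooth muscle actin, had 3.58, 5.10 and 3.58 FPKM in the SS18-SSX1 tumors against 28.4, 19.96 and 22.4 FPKM in the SS18-SSX2 tumors and was called (log2 fold change 2.27, limma adjusted p = 0.0474). Of 16 alternatives, the call held in 2 and in none that left out 1 tumor, with log2 fold changes of 2.13 to 2.52 and limma adjusted p of 0.0341 to 0.392. Tagln, an actin-binding protein of smooth muscle, had 1.94, 4.08 and 5.68 FPKM in the SS18-SSX1 tumors against 9.68, 20.1 and 9.05 FPKM in the SS18-SSX2 tumors. The summed list overlapped, at 105 to 279 FPKM for SS18-SSX1 against 162 to 262 FPKM for SS18-SSX2, with Des highest in the muscle-rich tumors and no listed marker at 0. Across the 11 marker lists 85 genes were tested. The genotypes did not overlap for 3 with higher values in SS18-SSX2 tumors (4.97% of all tested genes), the third being the fibroblast marker Thy1. They did not overlap for 5 with lower values (3.76%): the mast cell genes Mcpt4, Cma1 and Hdc, the tendon gene Tnmd and the epithelial gene Epcam. The part of any of these cell types in the Col3a1 difference was not tested.

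Col5a2, a chain of the fibril-initiating type V collagen, was high and low in the same tumors as Col3a1. It had 15.7, 86.2 and 14.2 FPKM (SS18-SSX1 tumors 1 to 3), then 139.9, 64.2 and 152 FPKM (SS18-SSX2 tumors 1 to 3). The lowest tumors were again SS18-SSX1 tumors 1 and 3 and the highest SS18-SSX2 tumors 3 and 1, with the muscle-rich tumors in between and overlapping. The log2 fold change was 2.00 (SE 0.69, limma adjusted p = 0.830). Without the muscle-rich tumor 2 of each genotype, a choice made after seeing the data, it was 3.20 and called (limma adjusted p = 0.0388). In that setting 0.144% of all tested genes were called. The tumors left out are the overlapping pair, so the lack of overlap among the rest follows from the choice. The 2 genes lie tail to tail on chromosome 1 with 24.6 kb between them, Col3a1 from 45311538 to 45349706 and Col5a2 from 45374321 to 45503282.

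The other type V chains did not share this order. Col5a1 had 109.8, 76.3 and 17.4 FPKM (SS18-SSX1 tumors 1 to 3), then 36.6, 35.5 and 52.3 FPKM (SS18-SSX2 tumors 1 to 3). Its highest value was in SS18-SSX1 tumor 1, where Col1a2, Col3a1 and Col5a2 were low, and the log2 fold change was -0.37 (SE 0.62, limma adjusted p = 0.997). Col5a3, a less common chain, was low throughout, at 0.703 to 6.55 FPKM. Within a tumor, the ratio of Col5a1 to Col5a2 was 6.97, 0.885 and 1.23 in the SS18-SSX1 tumors against 0.262, 0.553 and 0.344 in the SS18-SSX2 tumors, with every SS18-SSX1 tumor above every SS18-SSX2 tumor. The ratio of Col3a1 to Col1a1 was 0.222, 0.125 and 0.133 in the SS18-SSX1 tumors against 1.45, 0.445 and 0.984 in the SS18-SSX2 tumors, with every SS18-SSX2 tumor higher. The mean log2(FPKM + 1) of the 6 fibrillar chains was 4.91, 6.79 and 4.66 (SS18-SSX1 tumors 1 to 3), then 6.62, 6.36 and 7.05 (SS18-SSX2 tumors 1 to 3).

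**Figure D3:**
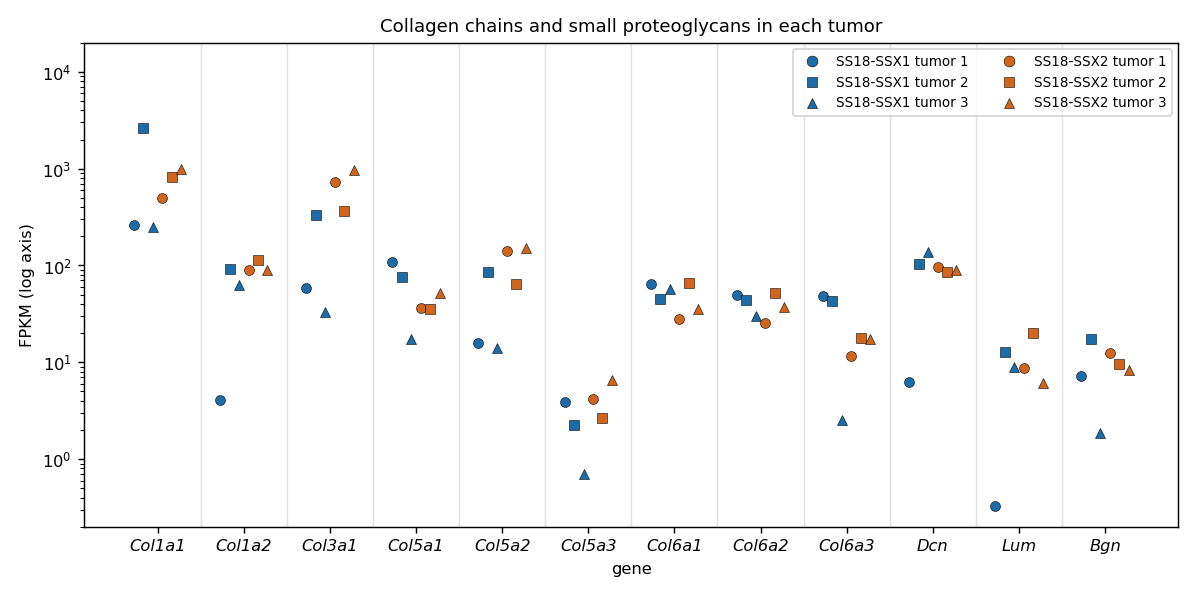
FPKM (vertical, log axis) of collagen chains and small proteoglycans (horizontal) in each tumor, blue for SS18-SSX1 and orange for SS18-SSX2, with circle, square and triangle for tumors 1, 2 and 3. Col3a1 is the only gene of the 12 whose genotypes do not overlap, where 8.72% of all tested genes do not. SS18-SSX1 tumor 1 is the lowest point for Col1a2, Dcn and Lum.

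Collagen VI, which forms beaded filaments around cells from chains of Col6a1, Col6a2 and Col6a3, had a lower mean in SS18-SSX2 tumors for all 3 chains, none of them called. Col6a1 ranged from 27.7 to 66.4 FPKM and Col6a2 from 25.5 to 52.1 FPKM, and their ratio stayed between 0.954 and 1.88 in the 6 tumors. They are neighbours on chromosome 10, 85.2 kb apart. Col6a3 differed from both, with 48.2, 43.3 and 2.52 FPKM (SS18-SSX1 tumors 1 to 3), then 11.6, 17.9 and 17.4 FPKM (SS18-SSX2 tumors 1 to 3). SS18-SSX1 tumor 3 had Col6a1 at 57.1 FPKM and Col6a3 at 2.52 FPKM. The ratio of Col6a3 to Col6a1 was 0.752, 0.959 and 0.0441 in the SS18-SSX1 tumors against 0.419, 0.270 and 0.488 in the SS18-SSX2 tumors. The log2 fold changes were -0.43, -0.13 and -0.27 for Col6a1, Col6a2 and Col6a3, with limma adjusted p of 0.997 each.

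Of the collagens that bind fibril surfaces or form networks, Col16a1 was the most abundant. This FACIT chain had 242, 319 and 109.6 FPKM (SS18-SSX1 tumors 1 to 3), then 146, 135 and 308 FPKM (SS18-SSX2 tumors 1 to 3), and the genotypes overlapped. Col12a1, a FACIT chain of dense connective tissue, had 1.36, 11.2 and 1.41 FPKM (SS18-SSX1 tumors 1 to 3), then 19.0, 8.81 and 8.51 FPKM (SS18-SSX2 tumors 1 to 3). Its 2 low tumors were SS18-SSX1 tumors 1 and 3, and its log2 fold change was 1.58 (SE 0.66, limma adjusted p = 0.990). Col14a1, a related FACIT chain, was high in 1 tumor, with 0.867, 23.9 and 1.11 FPKM (SS18-SSX1 tumors 1 to 3), then 2.64, 5.499 and 1.93 FPKM (SS18-SSX2 tumors 1 to 3). Col8a1, a short-chain network collagen of vessels, had 8.85, 27.2 and 7.48 FPKM (SS18-SSX1 tumors 1 to 3), then 41.9, 22.4 and 25.8 FPKM (SS18-SSX2 tumors 1 to 3) and a log2 fold change of 1.17 (SE 0.48, limma adjusted p = 0.990). Col15a1, a collagen of the basement membrane zone, had 7.51, 2.83 and 5.56 FPKM (SS18-SSX1 tumors 1 to 3), then 20.4, 4.76 and 25.7 FPKM (SS18-SSX2 tumors 1 to 3) and a log2 fold change of 1.32 (SE 0.60, limma adjusted p = 0.997). Its lowest values were in the 2 muscle-rich tumors, which also had the lowest summed endothelial markers (24.4 and 35.6 FPKM, against 65.3 to 121 elsewhere), and the part of endothelium was not tested.

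Fibrillins and their partners were expressed in every tumor, while elastin itself was low. Fbn1 had 73.4, 40.6 and 18.6 FPKM (SS18-SSX1 tumors 1 to 3), then 68.7, 23.8 and 57.2 FPKM (SS18-SSX2 tumors 1 to 3). Fbn2, the fibrillin of developing tissue, had 53.9, 24.0 and 8.39 FPKM (SS18-SSX1 tumors 1 to 3), then 33.3, 7.29 and 35.5 FPKM (SS18-SSX2 tumors 1 to 3), from 0.306 to 0.734 of Fbn1 in the same tumor. Mfap2, a microfibril protein, had 124.7, 42.3 and 21.8 FPKM (SS18-SSX1 tumors 1 to 3), then 43.5, 27.9 and 51.5 FPKM (SS18-SSX2 tumors 1 to 3). These 3 genes had their highest value in SS18-SSX1 tumor 1, the tumor with the lowest Col1a2, Lum and Dcn. Eln reached only 0.684 to 2.503 FPKM. Fbln1, a fibulin of elastic fibres and basement membranes, ranged from 75.3 to 203 FPKM with a log2 fold change of -0.57 (SE 0.39, limma adjusted p = 0.997). Fbln2 ranged from 15.2 to 44.1 FPKM, Fbln5, which helps elastin assemble, from 1.73 to 12.9 FPKM, and Emilin1, an elastin interface protein, from 1.22 to 10.3 FPKM with its single high value in SS18-SSX1 tumor 2.

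Mfap4 and Mfap5, microfibril genes of mature connective tissue, did not pass the filter and were not tested. Mfap4 rested on 1, 82 and 4 reads in the SS18-SSX1 tumors and on 33, 6 and 13 reads in those with SS18-SSX2. Mfap5 rested on 5, 132 and 7 reads and on 51, 27 and 25 reads. Both were highest in SS18-SSX1 tumor 2, at 3.10 and 2.67 FPKM. Of the fibroblast list, Dpt (19.4 FPKM), Pi16, Pdgfrb, Dpep1 and Gsn were also highest there. Pdgfra, Thy1, Fap, Cd34, Ly6a, Clec3b and Pdpn were highest in other tumors. Mfap4 overlaps Mapk7 on the other strand, which had 5.36 to 12.8 FPKM, and whether the counting used strand was not given in the sources used here.

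The collagen chaperone varied little between tumors, and the lysyl oxidases varied more. Serpinh1 had 495, 257 and 359.6 FPKM (SS18-SSX1 tumors 1 to 3), then 325, 276 and 419 FPKM (SS18-SSX2 tumors 1 to 3). Its highest value was 1.93 times its lowest, while Col1a1, a client of this chaperone, spanned 10.7-fold. The ratio of Serpinh1 to Col1a1 was 1.88, 0.0966 and 1.45 in the SS18-SSX1 tumors against 0.654, 0.334 and 0.423 in the SS18-SSX2 tumors. Pcolce, the enhancer of procollagen cleavage, ranged from 22.4 to 49.98 FPKM. Lox, which crosslinks collagen and elastin, had 0.546, 4.39 and 0.758 FPKM (SS18-SSX1 tumors 1 to 3), then 18.5, 4.05 and 6.70 FPKM (SS18-SSX2 tumors 1 to 3). Its genotypes overlapped by a single pair, SS18-SSX1 tumor 2 above SS18-SSX2 tumor 2, the muscle-rich tumors. The means were 1.90 ± 2.16 FPKM for SS18-SSX1 against 9.77 ± 7.72 FPKM for SS18-SSX2 (SD, n = 3 each), and the log2 fold change was 1.90 (SE 0.63, limma adjusted p = 0.810). Loxl1, the oxidase of elastic fibres, had 65.0, 20.2 and 18.6 FPKM (SS18-SSX1 tumors 1 to 3), then 15.7, 32.4 and 19.6 FPKM (SS18-SSX2 tumors 1 to 3), highest in the tumor where Lox was lowest. Loxl2 was low, at 0.802 to 3.19 FPKM. The ratio of Loxl2 to Lox was 2.98, 0.726 and 2.62 in the SS18-SSX1 tumors against 0.171, 0.198 and 0.223 in the SS18-SSX2 tumors, with every SS18-SSX1 tumor above every SS18-SSX2 tumor.

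Dcn and Lum were scarce in SS18-SSX1 tumor 1, and Bgn was lowest in SS18-SSX1 tumor 3. Dcn, decorin, which coats collagen fibrils, had 6.27, 104 and 138 FPKM (SS18-SSX1 tumors 1 to 3), then 95.4, 84.9 and 90.0 FPKM (SS18-SSX2 tumors 1 to 3). SS18-SSX1 tumor 1 was low and the SS18-SSX2 tumors were close together, at 82.6 ± 68.3 FPKM for SS18-SSX1 against 90.1 ± 5.28 FPKM for SS18-SSX2 (SD, n = 3 each). The log2 fold change was 0.94 (SE 1.00, limma adjusted p = 0.997). Lum, lumican, had 0.326, 12.8 and 8.84 FPKM (SS18-SSX1 tumors 1 to 3), then 8.66, 19.8 and 6.14 FPKM (SS18-SSX2 tumors 1 to 3), with the lowest value in the same tumor. Dcn and Lum are neighbours on chromosome 10, 47.0 kb apart. Bgn, biglycan, an X-linked relative of decorin, had 7.23, 17.4 and 1.87 FPKM (SS18-SSX1 tumors 1 to 3), then 12.4, 9.68 and 8.25 FPKM (SS18-SSX2 tumors 1 to 3). Its lowest value was in SS18-SSX1 tumor 3, where Dcn was highest. The ratio of Bgn to Dcn was 1.15, 0.168 and 0.0136 in the SS18-SSX1 tumors against 0.130, 0.114 and 0.0916 in the SS18-SSX2 tumors, a span of 85.0-fold in SS18-SSX1 tumors and 1.42-fold in SS18-SSX2 tumors.

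Among the matricellular genes, whose products modulate how cells meet the matrix, Sparc had the smallest ratio of highest to lowest value of the 34 tested genes, 1.58. This collagen-binding glycoprotein had 499, 454 and 323 FPKM (SS18-SSX1 tumors 1 to 3), then 459.8, 458 and 511 FPKM (SS18-SSX2 tumors 1 to 3), and its log2 fold change was 0.18 (SE 0.47, limma adjusted p = 0.997). Postn, periostin, had 88.5, 44.7 and 187 FPKM (SS18-SSX1 tumors 1 to 3), then 71.8, 106 and 38.0 FPKM (SS18-SSX2 tumors 1 to 3), highest in the mast-cell-rich SS18-SSX1 tumor 3, where 15 other matrix genes were lowest. Thbs1, a thrombospondin that can activate TGF-beta, ranged from 12.3 to 26.3 FPKM. Thbs2, its relative in connective tissue, had 7.62, 80.6 and 5.79 FPKM (SS18-SSX1 tumors 1 to 3), then 27.2, 11.0 and 25.0 FPKM (SS18-SSX2 tumors 1 to 3). Thbs2 was highest in SS18-SSX1 tumor 2 and lowest in the other 2 tumors of that genotype, as Col1a1 was.

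**Figure D4:**
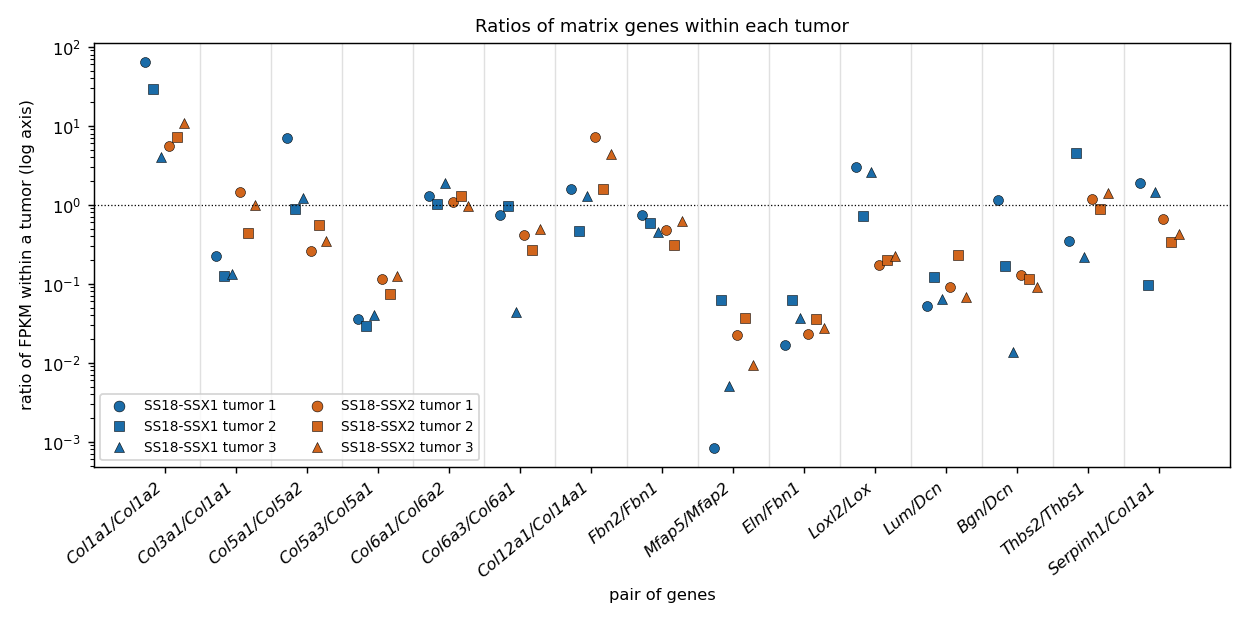
Ratio of the FPKM of pairs of matrix genes within each tumor (vertical, log axis; dotted line at 1), blue for SS18-SSX1 and orange for SS18-SSX2, with circle, square and triangle for tumors 1, 2 and 3. The genotypes do not overlap for Col3a1/Col1a1, Col5a1/Col5a2, Col5a3/Col5a1, Col12a1/Col14a1 and Loxl2/Lox. The SS18-SSX1 points of Col1a1/Col1a2, Col6a3/Col6a1, Mfap5/Mfap2, Bgn/Dcn, Thbs2/Thbs1 and Serpinh1/Col1a1 are spread over more than a 10-fold range. Mfap5 rests on 5 and 7 reads in SS18-SSX1 tumors 1 and 3.

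Of the 15 ratios compared, 5 did not overlap between genotypes: Col3a1/Col1a1, Col5a3/Col5a1 and Col12a1/Col14a1 were higher with SS18-SSX2, and Col5a1/Col5a2 and Loxl2/Lox were lower. Each gave an exact two-sided permutation p = 0.1, the smallest that 3 against 3 allows, and a Benjamini-Hochberg value of 0.3 over the 15 pairs, so none passed. The mean log2 ratio differed by 2.48 for Col3a1/Col1a1 and by -3.18 for Loxl2/Lox (SS18-SSX2 minus SS18-SSX1). The pairs share genes and are not independent. The share of other gene pairs without overlap was not computed, so the count of ratios has no background. Col3a1, Col5a2, Lox and Col12a1, which enter these ratios, had an unadjusted limma p under 0.05 on their own, so the ratios are not separate results.

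The comparison of the genotypes asked whether tumors of the 2 fusions differ in these genes. None of the 34 tested matrix genes was called (limma, Benjamini-Hochberg adjusted over all 13873 tested genes, threshold 0.05), where 0.0649% of all tested genes were called. Before adjustment 5 of the 34 had p under 0.05, where 4.97% of all tested genes had: Col3a1, Col5a2, Lox, Col8a1 and Col12a1, all with a higher mean in SS18-SSX2 tumors. The genotypes did not overlap for 1 of the 34, Col3a1, against 8.72% of all tested genes (4.97% higher in SS18-SSX2 tumors). The mean was higher in SS18-SSX2 tumors for 18 genes (52.9%, against 51.1% of all tested genes) and lower for 16. The median log2 fold change was 0.16 beside 0.01 over all tested genes. Without SS18-SSX1 tumor 3 that median was -0.17. By role, the mean was higher for 5 of 6 fibrillar chains (median 1.23), 0 of 3 collagen VI chains (median -0.27), 3 of 5 other collagens (1.17), 3 of 8 tested elastic fibre genes (-0.07), 2 of 5 chaperone, processing and crosslinking genes (-0.09), 3 of 3 small proteoglycans (0.94) and 2 of 4 matricellular genes (-0.07). Leaving out 1 tumor turned the sign for 21 of the 34 genes, Col1a1, Dcn and Lum among them, and for none of Col3a1, Col5a2, Col1a2, Lox, Col8a1, Col12a1 and Col15a1.

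**Figure D5:**
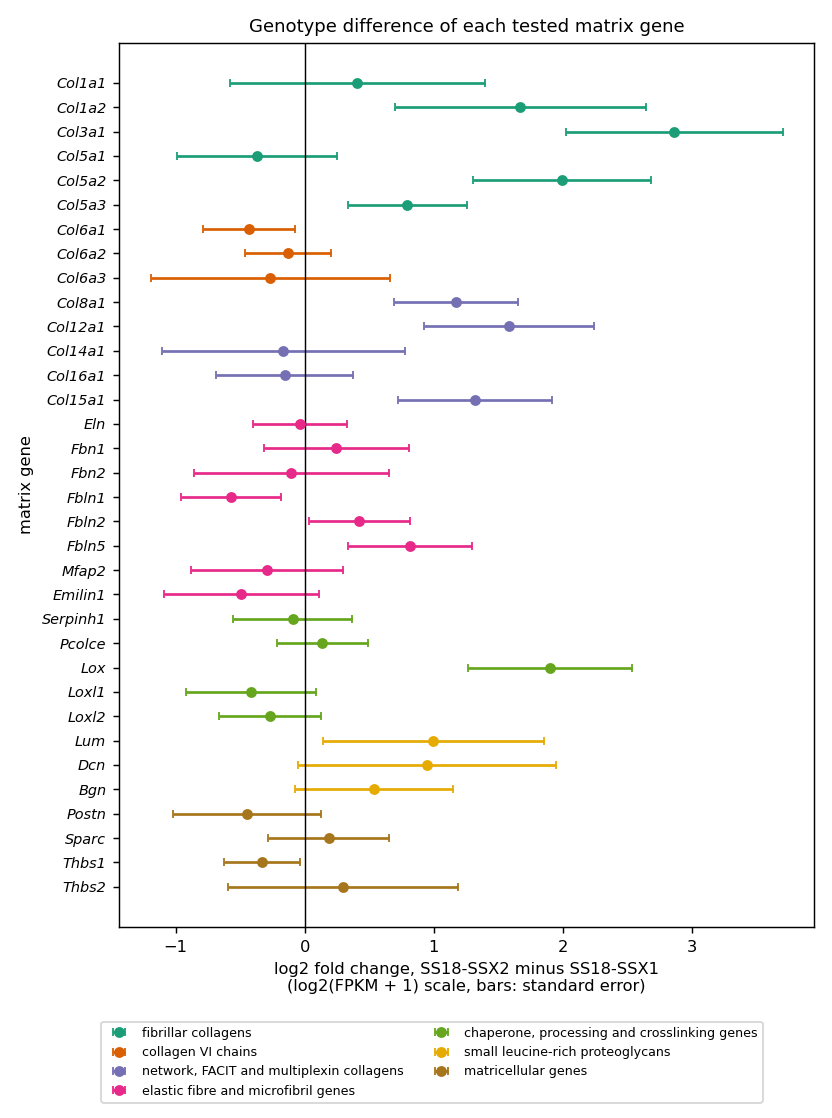
Log2 fold change (SS18-SSX2 minus SS18-SSX1, log2(FPKM + 1) scale, horizontal) of each of the 34 tested matrix genes (vertical), coloured by role, with bars of 1 standard error from limma. Col3a1 lies furthest right at 2.86, followed by Col5a2 at 2.00 and Lox at 1.90, and none was called.

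Of the 34 genes, only Col5a2 changed its call when the muscle-rich tumor 2 of each genotype was left out. Without both, a choice made after seeing the data, Col5a2 was called, at a log2 fold change of 3.20 (SE 0.36, limma adjusted p = 0.0388; range over 16 alternatives 0.0388 to 0.99997), where 0.144% of all tested genes were called. Col3a1 stood at 4.22 (adjusted p = 0.0664) and Lox at 2.90 (adjusted p = 0.147). The 2 remaining SS18-SSX2 tumors lay above the 2 remaining SS18-SSX1 tumors for 15 of the 34 genes, against 16.3% of all tested genes. Both lay below for 2 genes, Col6a1 and Postn, against 19% of all tested genes, and in either direction 17 did, against 35.4%. Among the 15 were Col1a1, Col1a2, Col3a1, Col5a2, Col5a3, Col8a1, Col12a1, Col14a1, Col15a1, Lox, Bgn and Thbs2. With 2 tumors a side, these values describe 4 tumors. The 2 left-out tumors differed in more than muscle RNA. Small and ribosomal RNA took 28.0% (SS18-SSX1 tumor 2) and 31.2% (SS18-SSX2 tumor 2) of their summed FPKM, against 7.91% to 19.0% in the others. SS18-SSX2 tumor 2 also had the fewest reads, 7285850. Which of these traits mattered was not tested. Leaving out only SS18-SSX1 tumor 2, singled out here after seeing the data, gave 10 genes without overlap (29.4%, against 19.5% of all tested genes). All 10 were higher in SS18-SSX2 tumors (9.05% of all tested genes) and 0 were lower (10.4%). None of the 34 was then called by limma, where 0.0577% of all tested genes were. SS18-SSX1 tumor 2 held the highest value of 9 of the 34 genes, so its removal by itself favours genes higher in SS18-SSX2 tumors. Leaving out any other single tumor gave a share without overlap of 5.88% to 20.6% of the matrix genes. Each time this was below the share of all tested genes, 10.9% to 23.1%.

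Other genes of matrix assembly, from 7 lists, gave the setting. Of 105 genes listed 100 were in the table and 76 were tested. None was called by limma (0.0649% of all tested genes were), and 10 of the 76 had an unadjusted p under 0.05 (4.97% of all tested genes). The genotypes did not overlap for 7 with higher values in SS18-SSX2 tumors (4.97% of all tested genes) and 7 with lower values (3.76%). Beside the counts of higher and lower means given by list below, 51.1% of all tested genes had a higher mean in SS18-SSX2 tumors.

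Enzymes that modify procollagen had a lower mean with SS18-SSX2 in 11 of 14 tested genes (median -0.25). P4hb, a subunit of prolyl 4-hydroxylase, had 444, 439.9 and 683 FPKM in the SS18-SSX1 tumors against 319, 394 and 325 FPKM in the SS18-SSX2 tumors, every SS18-SSX1 tumor higher (adjusted p = 0.997). Ppib, a prolyl isomerase of collagen folding, had 1091, 322 and 425 FPKM in the SS18-SSX1 tumors against 351, 454 and 407 FPKM in the SS18-SSX2 tumors. Plod2, a lysyl hydroxylase, ranged from 7.85 to 23.6 FPKM (adjusted p = 0.997 in limma). Genes of export, propeptide cleavage and crosslinking were higher in 5 of 11 (median -0.08). There Pcolce2, a relative of Pcolce, had 25.3, 3.60 and 4.13 FPKM in the SS18-SSX1 tumors against 0.804, 2.76 and 0.316 FPKM in the SS18-SSX2 tumors (adjusted p = 0.840), and Bmp1, the main procollagen C-proteinase, had 34.2 to 105 FPKM. Tll1, a relative of Bmp1, ranged from 1.86 to 14.9 FPKM (limma adjusted p = 0.997), and Mia3, which helps load procollagen for export, from 19.4 to 50.1 FPKM.

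Other small leucine-rich proteoglycans had a higher mean with SS18-SSX2 in 4 of 5 (median 0.44). Ogn, osteoglycin, had 2.01, 4.55 and 1.84 FPKM in the SS18-SSX1 tumors against 35.4, 21.7 and 7.57 FPKM in the SS18-SSX2 tumors, with no overlap and a log2 fold change of 2.41 (SE 0.54, limma adjusted p = 0.489). Podn, podocan, ranged from 2.53 to 5.91 FPKM, and Aspn, asporin, from 2.28 to 9.26 FPKM. Other elastic fibre and latent TGF-beta binding genes were higher in 10 of 13 (median 0.36). Adamtsl2, a fibrillin-binding protein, had 0.648, 0.527 and 0.627 FPKM in the SS18-SSX1 tumors against 4.02, 2.23 and 3.86 FPKM in the SS18-SSX2 tumors (adjusted p = 0.440), and Vcan, the large proteoglycan versican, had 14.7, 26.3 and 17.2 FPKM in the SS18-SSX1 tumors against 76.3, 34.7 and 45.6 FPKM in the SS18-SSX2 tumors (adjusted p = 0.593). Ltbp3 and Ltbp4, latent TGF-beta binding proteins, were the most abundant of that list, at 78.5 to 266 FPKM and 43.4 to 158 FPKM.

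Other matricellular genes were split, with 7 of 15 higher (median -0.02). Tnc, tenascin C, was the most abundant and had 559, 202 and 216 FPKM in the SS18-SSX1 tumors against 138, 73.2 and 167 FPKM in the SS18-SSX2 tumors, with every SS18-SSX1 tumor higher (adjusted p = 0.988). Smoc1, a calcium-binding matrix protein, had 28.3, 7.25 and 3.90 FPKM in the SS18-SSX1 tumors against 0.984, 0.550 and 0.797 FPKM in the SS18-SSX2 tumors (adjusted p = 0.525), and Ccn2, connective tissue growth factor, had 4.04, 9.52 and 2.69 FPKM in the SS18-SSX1 tumors against 22.3, 13.0 and 16.6 FPKM in the SS18-SSX2 tumors in the opposite direction (adjusted p = 0.593). Spp1, osteopontin, reached 372 FPKM in SS18-SSX1 tumor 2 and at most 11.2 FPKM in the others.

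Collagen receptors and turnover genes had a lower mean with SS18-SSX2 in 8 of 11 (median -0.10). Mmp2, a gelatinase, had 352, 281 and 324 FPKM in the SS18-SSX1 tumors against 157, 136 and 175 FPKM in the SS18-SSX2 tumors, with means of 319 ± 35.5 FPKM for SS18-SSX1 against 156 ± 19.5 FPKM for SS18-SSX2 (SD, n = 3 each). Its log2 fold change was -1.03 (SE 0.35, limma adjusted p = 0.810). Timp2, its inhibitor and activation partner, had 91.3, 123 and 50.8 FPKM in the SS18-SSX1 tumors against 28.8, 42.9 and 30.7 FPKM in the SS18-SSX2 tumors (adjusted p = 0.661). Both were higher in every SS18-SSX1 tumor, the direction opposite to Col3a1. Itgb1, the shared subunit of collagen-binding integrins, had 121 to 228 FPKM. Of the remaining collagen chains 7 were tested, 3 with a higher mean (median -0.01), led in level by the membrane collagen Col23a1, at 36.8 to 100.3 FPKM, and Col18a1, at 25.2 to 48.5 FPKM. Col20a1, which had one of the smallest p of the list (limma adjusted p = 0.997), ranged from 0.517 to 2.46 FPKM.

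The 36 genes together held 0.910%, 1.28% and 0.489% of the summed FPKM (SS18-SSX1 tumors 1 to 3), then 1.21%, 0.672% and 1.32% (SS18-SSX2 tumors 1 to 3; exact two-sided permutation p = 0.6, n = 3 per genotype). Small RNAs and ribosomal RNA took 7.91% to 31.2% of the sums. Without them the shares were 1.02%, 1.77% and 0.604%, and 1.31%, 0.977% and 1.61% (p = 0.7 by the same exact permutation test). Col1a1 alone made up 51.4% of the matrix sum in SS18-SSX1 tumor 2 and 10.5% to 27.8% in the other 5 tumors.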

How the data were processed

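Bulk RNA of 6 mouse tumors, 3 per genotype, was analysed. Snap-frozen tissue was extracted with RNeasy kits and Ribo-Zero libraries were made, per the labels' protocols. The submitters' processing notes list Novoalign 2.08.03 and mm10, with no role. The authors deposited FPKM values, 1 column per tumor; counting tool, gene models, strand handling and filters were not given in the sources used here. Columns were matched by sample description. Identifiers were matched to GENCODE release 21 (GRCm38): 17029 of 17312 had a symbol.

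The test was limma 3.58.1 on log2(FPKM + 1) (R 4.3.3, eBayes with trend), two-sided, Benjamini-Hochberg adjusted over the 13873 genes with at least 1 FPKM in at least 3 tumors. The limma fit was tested on simulated data with normal noise and each gene's SD within a genotype capped at 1 on the log2 scale. Genes that vary more than that were not covered. Python 3.11.15, pandas 2.3.3 and matplotlib 3.10.9 made tables and figures. Totals of reads came from single-exon genes, where 77.3% to 79.9% of low values were whole within 0.02 reads; reads of a gene are given only where its annotated length made them whole (19 of 36). Fold changes on this scale understate changes of low genes.

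All 36 genes are described, with all values for those of smallest p, highest mean or largest SD; from each pathway list, those with the 2 smallest p or 2 highest means. Members and lists were chosen with earlier results of these data known. The table of protein sequences planned for the Gly-X-Y runs was not used here, and codons were read instead. Alternatives were other pseudocounts, filters, scalings, a model without trend, a replicate block and left-out tumors.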

Additional observations from a re-analysis of the deposited data

How the results depend on the processing

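Under 9 other settings with all 6 tumors (pseudocounts of 0.1 and 0.5, eBayes without trend, no filter or one on a mean of 5 FPKM, scaling by quantiles, by the upper quartile or to TPM, and a replicate block), no matrix gene was called and directions held, with these exceptions. Col14a1 turned to 0.051 with a pseudocount of 0.1 and to 0.042 after rescaling to TPM, and Eln to 0.052 after rescaling to TPM. The count of matrix genes without overlap was 2 of 34 with quantile normalization and 2 of 34 after rescaling to TPM. The share of all tested genes without overlap was not computed for these 2 settings. All genes called numbered 5 with a pseudocount of 0.1, and with the replicate block, which pairs tumors by number, they numbered 4. Deviations of same-numbered tumors correlated at 0.38, 0.31 and -0.28 for numbers 1, 2 and 3. SS18-SSX1 tumors 1 and 2 each correlated best with their own number, and SS18-SSX1 tumor 3 with SS18-SSX2 tumor 2 (0.15). Deviations from a mean of 3 tumors depend on each other, so these values cannot decide whether the numbers pair the tumors. In both genotypes the column names of tumor 2 begin with A and those of tumor 3 with B, with no meaning given in the sources used here. Leaving out 1 tumor at a time gave 3 to 11 genes called (3 without SS18-SSX2 tumor 3), 2 to 10 of 34 matrix genes without overlap (5.88% to 29.4%, against 10.9% to 23.1% of all tested genes) and a matrix median of -0.17 (without SS18-SSX1 tumor 3) to 0.30, and no matrix gene was called. Sign changes came in Col1a1 (-0.17 to 1.53), Col5a1 (-1.15 to 0.15), Col6a2 (-0.38 to 0.12), Col6a3 (-1.51 to 0.39), Col14a1 (-0.82 to 1.05), Col16a1 (-0.60 to 0.17), Eln (-0.28 to 0.25), Fbn1 (-0.26 to 0.70), Fbn2 (-0.76 to 0.59), Mfap2 (-0.86 to 0.37), Emilin1 (-0.92 to 0.25), Serpinh1 (-0.33 to 0.14), Pcolce (-0.21 to 0.32), Loxl1 (-0.73 to 0.15), Loxl2 (-0.60 to 0.012), Lum (-0.049 to 1.64), Dcn (-0.41 to 1.72), Bgn (-0.16 to 1.18), Postn (-0.95 to 0.073), Sparc (-0.0016 to 0.31), Thbs2 (-0.36 to 1.43). Log2 ratios changed sign for Col6a3/Col6a1 (-1.16 to 1.06), Eln/Fbn1 (-0.75 to 0.18), Bgn/Dcn (-1.99 to 1.21), Thbs2/Thbs1 (-0.13 to 2.06), Serpinh1/Col1a1 (-1.87 to 0.27). Without both muscle-rich tumors 20 genes were called (0.144% of all tested genes), 1 matrix gene among them. There 17 of 34 matrix genes did not overlap, against 35.4% of all tested genes. The sign changed for Col6a3 (0.21), Col14a1 (0.72), Col16a1 (0.38), Eln (0.41), Fbn2 (0.64), Emilin1 (0.33), Pcolce (-0.24), Loxl2 (0.21). In each case the cause was not tested. Mfap4 is limited by depth, at 1 to 82 reads per tumor.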

Other observations

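Some genes of the same lists stood out in a single tumor, and these were chosen after their values were seen. Col6a6 and Col6a5, less common chains of collagen VI, had 34.4 and 11.8 FPKM in SS18-SSX1 tumor 1, against at most 1.80 and 0.538 FPKM in the other 5 tumors. In that tumor Col6a1, Col6a2 and Col6a3 stood at 64.1, 49.0 and 48.2 FPKM. Col27a1, a fibrillar chain of cartilage, had 31.5 FPKM there and at most 19.3 FPKM elsewhere. Col8a2, the partner chain of Col8a1, had 3.11, 91.7 and 26.9 FPKM in the SS18-SSX1 tumors against 21.8, 29.2 and 30.3 FPKM in the SS18-SSX2 tumors. Thbs4 and Ccn5, matricellular genes of tendon and smooth muscle, had 16.8 and 12.3 FPKM in SS18-SSX1 tumor 2, against at most 2.75 and 6.92 FPKM in the others. Efemp1, a fibulin, had 14.6 FPKM in tumor 3 of SS18-SSX1 and 8.29 FPKM in tumor 2 of SS18-SSX2, against at most 1.73 FPKM in the other 4. Sparcl1, a relative of Sparc, ranged from 13.0 to 121 FPKM, while Sparc ranged from 323 to 511 FPKM.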
